A study of Homo sapiens with 12 samples.

Results

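*TRIB1*, *SOX4*, *IRS1*, *JMJD1C*, *MAML2* and *CAMK2N2* are 6 protein-coding genes, out of 26364 gene symbols counted, that code for regulators of transcription or signaling. They were selected on measured values: each had a lower normalized count with the TOP2 inhibitor ICRF193 than without inhibitor in all 4 matched pairs of libraries. The ICRF193 values below are therefore a description without a test. The CPT comparison shares its 4 control libraries with the selection and is not independent of it. The data come from HCT116, a human colon cancer cell line, and comprise 12 libraries of total RNA with 1 library per condition. The 6 conditions of wildtype (WT) cells were no inhibitor, CPT or ICRF193 (5 µM each, given for 2 h beforehand), each without TNFα (0 h) or with 20 ng/mL TNFα added for 1 h. Since TNFα followed the inhibitor, the 1 h libraries with an inhibitor may also have had it for longer, and in these pairs TNFα and exposure time cannot be told apart. The same 6 conditions were sequenced in clone 32, a single-cell clone lacking the NF-κB subunit p65, so that p65 loss and other properties of this clone cannot be told apart. The labels call these cells shRNA p65, while the methods describe CRISPR-Cas9, which was followed here. No condition has a replicate, and matched pairs that differ in cell line, TNFα or inhibitor stand in for replicates.

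TOP1 relieves the torsional stress that builds up around a moving RNA polymerase by cutting a single strand of the DNA, and CPT traps it on the cut DNA. TOP2 passes a DNA segment through a break in both strands, and ICRF193 blocks it as a closed clamp without stabilizing that break. TRIB1 is a pseudokinase that recruits the ubiquitin ligase COP1 to C/EBP transcription factors, and SOX4 is an HMG-box transcription factor. IRS1 docks the receptors for insulin and IGF1 to PI3 kinase. JMJD1C belongs to the JmjC histone demethylases, MAML2 is a coactivator of Notch, and CAMK2N2 is an inhibitor of CaM kinase II.

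To show what lies upstream of the members, the 250 bases before the transcription start are printed for the 4 members with a single start in the RefSeq promoter table (GRCh38.p14, a build other than that of the counts). The table holds 5 of the 6 members, with 3 starts for *JMJD1C*, and has no entry for *TRIB1*. The windows are chr6:21593501-21593750 for *SOX4* (plus strand), chr2:226799821-226800070 for *IRS1* (minus strand), chr11:96343196-96343445 for *MAML2* (minus strand) and chr3:184261554-184261803 for *CAMK2N2* (minus strand). Capitals mark the GC box GGGCGG and the motif CCAAT on either strand.
SOX4: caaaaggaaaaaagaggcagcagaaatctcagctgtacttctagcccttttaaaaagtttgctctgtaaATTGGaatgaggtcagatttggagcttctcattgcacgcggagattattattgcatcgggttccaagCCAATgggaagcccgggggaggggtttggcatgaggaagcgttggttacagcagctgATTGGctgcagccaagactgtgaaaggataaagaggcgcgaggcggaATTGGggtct
IRS1: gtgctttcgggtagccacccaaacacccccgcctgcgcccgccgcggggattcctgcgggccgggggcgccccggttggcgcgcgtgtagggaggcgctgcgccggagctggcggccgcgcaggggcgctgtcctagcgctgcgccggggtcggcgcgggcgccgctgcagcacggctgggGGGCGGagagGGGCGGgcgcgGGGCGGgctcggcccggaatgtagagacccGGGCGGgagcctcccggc
MAML2: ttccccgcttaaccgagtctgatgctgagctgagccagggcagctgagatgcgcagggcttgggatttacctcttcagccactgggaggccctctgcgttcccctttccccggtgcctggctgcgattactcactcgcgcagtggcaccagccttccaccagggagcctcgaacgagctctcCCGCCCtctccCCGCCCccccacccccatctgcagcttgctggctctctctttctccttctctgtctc
CAMK2N2: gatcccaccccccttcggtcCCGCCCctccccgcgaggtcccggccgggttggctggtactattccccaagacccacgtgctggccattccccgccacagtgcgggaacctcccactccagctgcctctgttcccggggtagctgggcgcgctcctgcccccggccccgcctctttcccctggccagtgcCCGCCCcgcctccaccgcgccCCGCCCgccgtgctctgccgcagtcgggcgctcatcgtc

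The *SOX4* window held 4 matches to CCAAT and none to GGGCGG, whereas *IRS1*, *CAMK2N2* and *MAML2* held 4, 3 and 2 matches to GGGCGG and none to CCAAT. At least 1 CCAAT was found in 11240 of the 35116 promoters of the table, and 0.874% held 4 or more. GGGCGG was found in 42.6% of all promoters and in 63.3% of those of genes tested with CPT, and 7.63% of all held 4 or more. The GC content was 48.8% for *SOX4*, 63.6% for *MAML2*, 74.4% for *CAMK2N2* and 80.8% for *IRS1*, at a median of 58.0% over the table. The core GCGTG occurred 1 time each in the *SOX4* and *IRS1* windows (32.2% of all promoters) and the E-box CACGTG 1 time in *CAMK2N2* (6.34%). The TATA box TATAAA (10.7% of all promoters), the AP-1 site TGANTCA (6.57%), the CRE site TGACGTCA (1.65%) and the NF-κB consensus (5.21%) had no match in these 4 windows. Both strands were searched, and a match describes letters and not binding.

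The 6 genes differ widely in size. In the hg19 coordinates of the deposited tables, *CAMK2N2* (chr3:183977003-183979251, minus strand) covers 2249 bases and *SOX4* (chr6:21593972-21598849, plus strand) covers 4878 bases in 1 exon. *TRIB1* (chr8:126442563-126450647, plus strand) covers 8085 bases and *IRS1* (chr2:227596033-227663506, minus strand) covers 67474 bases. *JMJD1C* (chr10:64926981-65225761, minus strand) and *MAML2* (chr11:95709757-96076344, minus strand) are long genes of 298781 and 366588 bases. The reads were counted without regard to strand, and 507 exonic bases of *JMJD1C* are shared with the antisense gene *JMJD1C-AS1*, which had 421 reads over the 12 libraries. Reads from these bases cannot be assigned to a strand. *MAML2* shares 89 exonic bases with *MIR1260B* on the other strand, which had 0 reads. *CAMK2N2* overlaps the span of *ECE2* on the other strand (3954 reads over the 12 libraries), with 0 shared exonic bases. Whether unspliced *ECE2* reads were counted for *CAMK2N2*, a gene with few reads, was not tested.

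Between 8101212 and 22051046 reads were counted per library. Of the clone 32 libraries, 4 stayed at or below 8755001 reads, namely the ICRF193 library without TNFα and the 3 libraries with TNFα, so that depth and TNFα cannot be told apart in clone 32 without inhibitor and with CPT. The clone 32 pair at 0 h, used in the selection, had 8755001 reads with ICRF193 and 20524958 without inhibitor. Depth and ICRF193 cannot be told apart in that pair. Counts were divided by DESeq2 size factors to give normalized counts. *RELA*, the gene of p65, reached at most 673 normalized counts in clone 32 and at least 694 in WT cells, which measures mRNA and not protein. The epithelial markers *EPCAM*, *KRT8*, *KRT18*, *KRT19* and *CDH1* and the intestinal marker *CDX2* had at least 107 reads in every library. The other intestinal markers, *CDH17*, *VIL1* and *CDX1*, were at or near 0, with at most 5 reads. Of 10 markers of blood, endothelial, stromal, liver and glial cells, 7 stayed under 20 reads in every library. *CD14* and *VWF* reached 21 and 26 reads, and *COL1A1* had 57 to 227. The summed level over all 10 was 1.89 to 5.35 TPM. In such bulk samples, fewer cells and less RNA per cell cannot be told apart.

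Per transcript length, *TRIB1* was the most abundant member. Its median over the 12 libraries was 182 TPM, followed by *SOX4* (33.1), *IRS1* (28.5) and *JMJD1C* (28.1), whose ranges overlapped. *CAMK2N2* (3.83 TPM) and *MAML2* (0.608 TPM) were low, with 17 to 75 and 19 to 101 reads per library, and their values carry a large counting error.

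With ICRF193, the 4 well-expressed members were at 70.1% to 87.5% of the matched control in single pairs. *TRIB1* had 8854, 8520, 6019 and 6429 normalized counts without inhibitor, in the order WT 0 h, WT 1 h, clone 32 0 h and clone 32 1 h, which is kept below. With ICRF193 it had 6510.1, 6751, 4636 and 4851 normalized counts. These levels correspond to 73.5%, 79.2%, 77.0% and 75.5% of the control, and the mean was nearly the same in WT cells (76.3%) and clone 32 (76.2%). *SOX4* went from 1622, 1430.4, 2357 and 2257 normalized counts without inhibitor to 1202, 1127, 1791 and 1903 with ICRF193. The WT and clone 32 levels of *SOX4* stayed apart with ICRF193, and how many genes do so was not counted. *IRS1* went from 2822, 2541, 2141 and 2007 normalized counts to 2249, 2155, 1512 and 1638. *JMJD1C* had 2641, 2673, 2397 and 2848 normalized counts without inhibitor and 2139.7, 2116, 2099 and 1996 with ICRF193. The 4 ICRF193 libraries of *JMJD1C* lay within a range of 1.07-fold and below all 4 control libraries. The selection favors such a gap, and how many genes show it was not counted.

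The 2 low members had mean levels of 61.1% (*MAML2*) and 65.6% (*CAMK2N2*) of the control, from few reads, while single pairs overlapped with those of the other members. *MAML2* had 55, 45, 101 and 48 reads without inhibitor and 32, 21, 32 and 28 with ICRF193, or 78.3%, 46.1%, 71.3% and 54.2% of the control after normalization. *CAMK2N2* had 75, 48, 62 and 31 reads without inhibitor and 36, 29, 17 and 26 with ICRF193, or 64.6%, 59.7%, 61.7% and 77.9% of the control. The direction in all 4 pairs was fixed by the selection. In the edgeR fit over the 4 pairs, the log2 fold changes were -0.67 for *MAML2*, -0.61 for *CAMK2N2*, -0.39 for *TRIB1*, -0.36 for *SOX4* and -0.33 for *IRS1* and *JMJD1C*.

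Applied to the whole table, the selection is broader than these 6 genes. Of 13631 genes tested, 1.58% passed an adjusted p of 0.05 with a lower level with ICRF193 and 0.587% with a higher level. Of the 216 lower genes, 151 are protein-coding, were lower in all 4 pairs and had a mean count of at least 20. Among them by fold change, *MAML2* and *CAMK2N2* had ranks 2 and 3, *TRIB1* rank 10, *SOX4* rank 15, and *IRS1* and *JMJD1C* ranks 19 and 20. *NSMCE2* (-0.33) follows *JMJD1C*. At the edge of the threshold, *MTG2* (log2 fold change -0.18) was the last gene inside, and *EXT1* (-0.21), also lower in all 4 pairs, was the first outside.

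**Figure D1:**
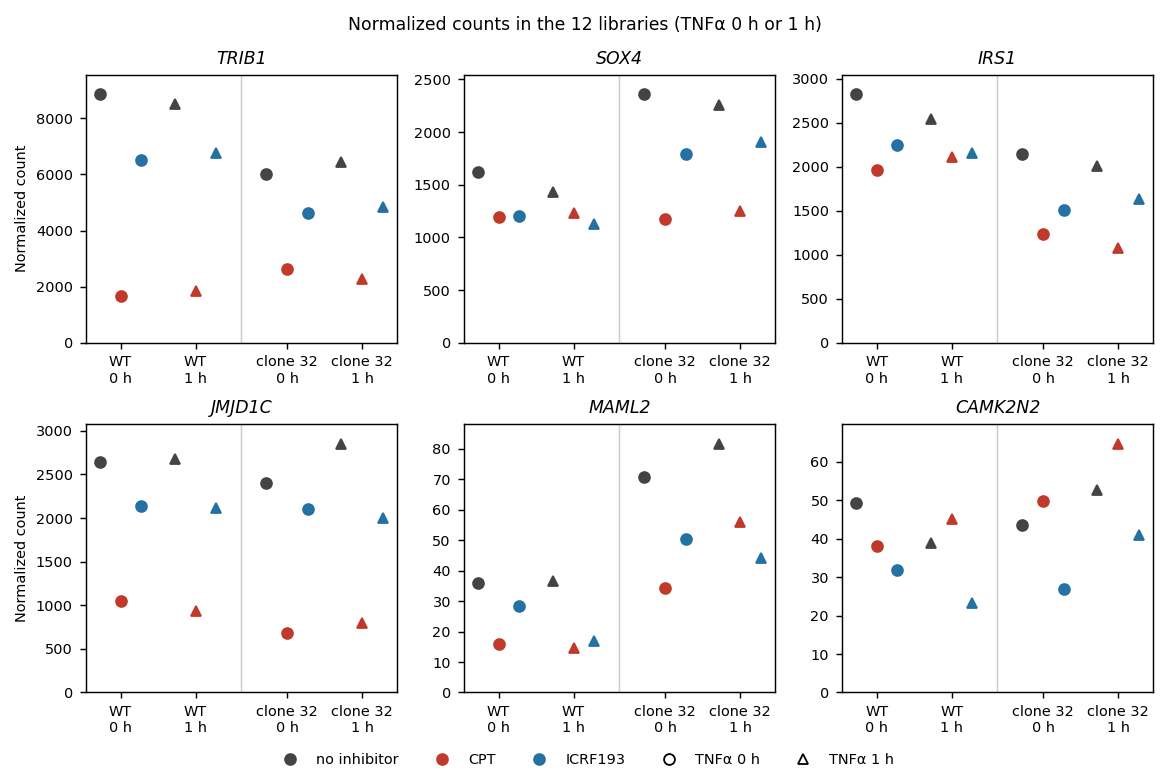
Normalized counts (linear axis from 0) of the 6 members in the 12 libraries, with circles for 0 h and triangles for 1 h TNFα, WT cells to the left and clone 32 to the right of the line. ICRF193 (blue) lies below no inhibitor (dark) in every pair, and CPT (red) lies at 678 to 1047 normalized counts for *JMJD1C*, below all other libraries.

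In the comparison of CPT with the same 4 control libraries, 5 of the 6 genes were called lower. The selection favors genes whose counts happen to be high in these controls, which pulls the CPT fold changes and p-values in the same direction by an amount that was not measured, and *MAML2*, with 45 to 101 control reads, and *CAMK2N2*, with 31 to 75, have the fewest reads. *TRIB1* (log2 fold change -1.84, standard error 0.16, edgeR adjusted p = 3.6e-06) and *JMJD1C* (-1.62 ± 0.08 (SE), edgeR adjusted p = 7.1e-08) fell most. *MAML2* (-1.01), *SOX4* (-0.63) and *IRS1* (-0.61) fell to a lesser degree, and *CAMK2N2* was at 0.06 ± 0.17 (SE) with an edgeR adjusted p of 0.77. Among all 13993 genes tested, 25.1% passed as lower and 23.2% as higher. Only 0.858% of these genes had a more negative log2 fold change than *TRIB1* and 1.23% than *JMJD1C*, against 10.5% for *SOX4* and 10.9% for *IRS1*.

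With CPT, *TRIB1* was at 1668, 1854, 2627 and 2279 normalized counts. This is less than the lowest library without inhibitor (6019) and the lowest with ICRF193 (4636) in every case. *JMJD1C* was at 1047, 938, 678 and 796 normalized counts with CPT, against at least 2397 without inhibitor and at least 1996 with ICRF193. *SOX4* was at 1194, 1236, 1176 and 1250.3 normalized counts, so that its 4 CPT libraries differed by no more than 1.06-fold although the controls ranged from 1430.4 to 2357. For *TRIB1*, *JMJD1C* and *SOX4*, all 4 CPT libraries were below all 4 controls, which held for 20.2% of the genes tested. *IRS1* had 1958, 2108, 1242 and 1074 normalized counts with CPT. The highest of these exceeds the lowest control (2007). The groups separate within each cell line, and how many genes do so was not counted. *MAML2* had 19, 20, 44 and 32 reads with CPT, and the exact Clopper-Pearson 95% interval of its log2 ratio, which covers counting error only, included 0 in the clone 32 pair at 1 h. The *MAML2* call (edgeR adjusted p = 0.00084) was lost without the pair as a block (adjusted p = 0.096). *CAMK2N2* had 46, 62, 64 and 37 reads with CPT and none of its 4 intervals excluded 0. With ICRF193, where the direction was selected, 2 of its 4 intervals excluded 0. Side by side, *CAMK2N2* was at 65.6% of the control with ICRF193 and at 106% with CPT, while *TRIB1* was at 76.3% with ICRF193 and 28.2% with CPT (means of 4 pairs). Both sets of values share their controls.

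**Figure D2:**
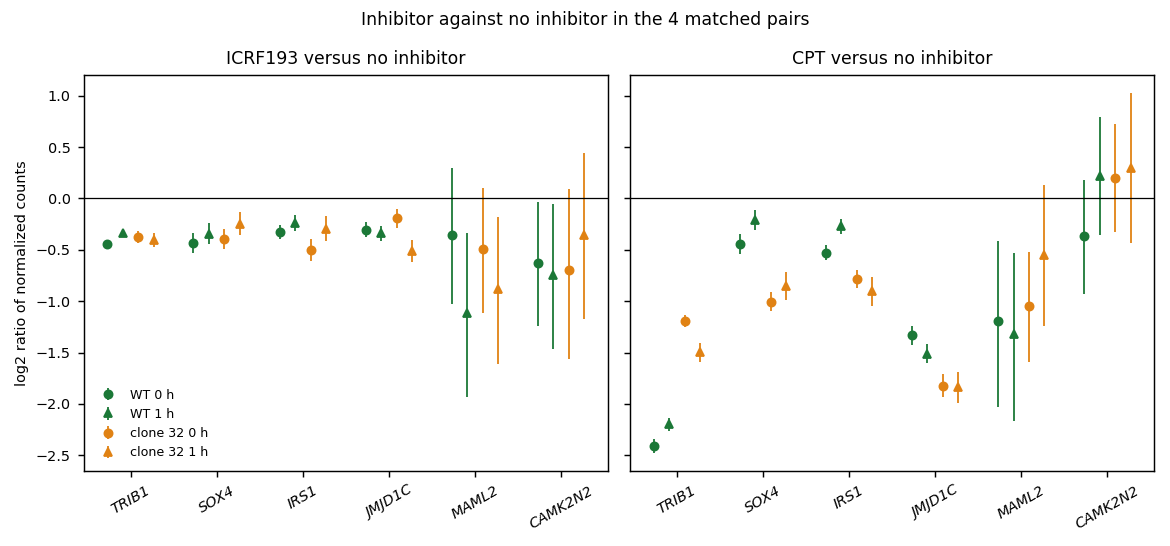
Log2 ratio of normalized counts with ICRF193 (left) and CPT (right) to no inhibitor for each member in the 4 matched pairs, with WT cells in green, clone 32 in orange, circles for 0 h and triangles for 1 h TNFα. Bars are 95% intervals for counting error. With ICRF193 all points are below 0 by the selection, whereas with CPT *TRIB1* lies between -2.41 and -1.20 and *CAMK2N2* lies on both sides of 0.

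The response to CPT differed between the cell lines for 4 of the 6 genes, in both directions. *TRIB1* fell less in clone 32, with log2 ratios of -2.41 and -2.20 in the WT pairs and -1.20 and -1.496 in the clone 32 pairs. This left 20.2% of the control in WT cells and 39.3% in clone 32. The difference was 0.95 ± 0.09 (SE) on the log2 scale, with an edgeR adjusted p of 8.3e-06. *SOX4* fell more in clone 32 (-1.003 and -0.85) than in WT cells (-0.44 and -0.21), a difference of -0.63 ± 0.10 (SE) with an edgeR adjusted p of 0.00089. Of all 14573 genes tested for this difference, 2.39% passed in the direction of *TRIB1* and 2.38% in that of *SOX4*. *IRS1* also fell more in clone 32 (-0.79 and -0.90) than in WT cells (-0.53 and -0.27), by -0.46 ± 0.10 (SE, edgeR adjusted p = 0.0097). *JMJD1C* had log2 ratios of -1.82 and -1.84 in clone 32 and of -1.33 and -1.51 in WT cells, a difference of -0.43 ± 0.09 (SE, edgeR adjusted p = 0.012). The calls for *IRS1* and *JMJD1C* were lost with DESeq2 (adjusted p = 0.078 and 0.13) and without the clone 32 pair at 1 h (edgeR adjusted p = 0.077 and 0.079), and that for *JMJD1C* also without the clone 32 pair at 0 h (edgeR adjusted p = 0.090). *MAML2* (difference 0.39 ± 0.35, SE) and *CAMK2N2* (0.30 ± 0.30, SE) did not pass.

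No difference in the CPT response between 1 h and 0 h TNFα passed for a member. In the fit over both cell lines it was -0.07 ± 0.31 (SE) for *TRIB1*, 0.20 ± 0.22 (SE) for *SOX4* and between -0.09 and 0.32 for the other members. None of the 6 passed with edgeR or DESeq2, and 0.00686% of all genes passed with edgeR. No member had an unadjusted p under 0.05 with edgeR, beside 94 of all 14573 genes. This fit has no term for the cell line, although the CPT response differed between the lines. With such a term, added after seeing the data and leaving 1 residual degree of freedom, the values were -0.05 ± 0.10 (SE) for *TRIB1* and 0.19 ± 0.11 (SE) for *SOX4*. Again none of the 6 passed with edgeR or had an unadjusted p under 0.05, beside 296 of 14573 genes at that unadjusted threshold. The *TRIB1* log2 ratio at 1 h was less negative than at 0 h in WT cells and more negative in clone 32, whereas that of *SOX4* was less negative at 1 h in both lines. Without 1 pair, the *TRIB1* difference ranged from -0.66 to 0.54, so that its sign depended on the pair left out. It passed without the WT pair at 0 h (-0.66, edgeR adjusted p = 0.00089), where WT cells contribute only to the 1 h side and the line difference enters the value.

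The members span short and long genes, and the CPT change was also compared with that of genes of like size. Among genes under 10 kb, the median CPT log2 fold change was 0.20 and 16.1% were called lower, whereas among genes of 200 kb and over the median was -0.13 and 33.4% were called lower. *TRIB1* and *SOX4* belong to the short class, in which 2.01% of 3685 genes had a more negative value than *TRIB1* and 8.68% than *SOX4*. *JMJD1C* and *MAML2* belong to the long class, in which 1.07% and 4.83% of 745 genes lay below them. For *CAMK2N2*, the shortest member, 35.3% of the short class lay below it, and for *IRS1* 11.5% of the 2125 genes of 50 to 100 kb. The share called lower also varied with span for ICRF193, the contrast of the selection. It was 2.52% under 10 kb, 0.426% at 50 to 100 kb and 8.33% at 200 kb and over, beside 1.58% over all genes.

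**Figure D3:**
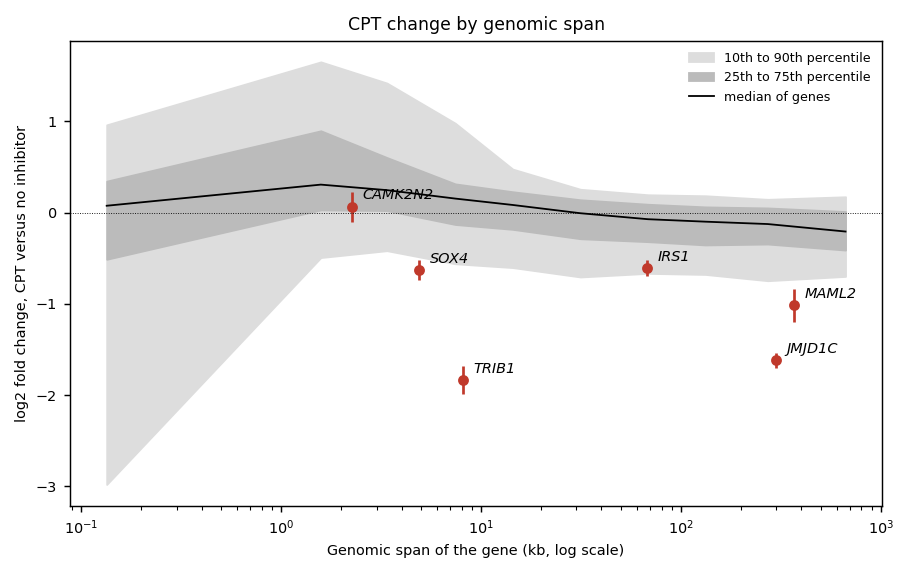
CPT log2 fold change of the members (red, bars are standard errors) over the genomic span of the gene in kb (log axis), on the 10th to 90th and 25th to 75th percentile and the median of all tested genes in bins of span. The median declines from genes of a few kb to the longest genes, and *TRIB1*, *SOX4*, *JMJD1C* and *MAML2* lie below the 10th percentile near their span.

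Clone 32 differed from WT cells in 3 of the 6 genes, and the CPT pairs of *TRIB1* and *SOX4* differed from their other pairs. *MAML2* was higher in clone 32 (log2 fold change 1.20 ± 0.16, SE, edgeR adjusted p = 7.0e-05), and *SOX4* was higher (0.43 ± 0.09, SE, edgeR adjusted p = 0.0027). *IRS1* was lower (-0.54 ± 0.07, SE, edgeR adjusted p = 5.3e-05). Of 13730 genes tested, 15.2% were called higher and 16.9% lower, so that a difference between these lines is common.

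*MAML2* was higher in clone 32 in 6 of 6 pairs, by 1.79-fold to 3.83-fold, and the interval excluded 0 in each. Over all conditions, its WT libraries had 14.6, 22.6 and 36.5 normalized counts (lowest, median, highest) and those of clone 32 had 34.3, 53.2 and 81.6, so that the ranges overlap slightly. *IRS1* was lower in 6 of 6 pairs, with log2 ratios of -0.40 and -0.34 without inhibitor, -0.57 and -0.40 with ICRF193, and -0.66 and -0.97 with CPT at 0 h and 1 h. *SOX4* was 1.45-fold and 1.58-fold higher in clone 32 without inhibitor and 1.49-fold and 1.69-fold higher with ICRF193. With CPT its log2 ratios were -0.02 and 0.02, and both intervals included 0. *TRIB1* was lower in clone 32 in the 4 pairs without inhibitor or with ICRF193 (log2 ratios -0.56 to -0.41) but higher in both CPT pairs (0.66 and 0.30). Over all 6 pairs, *TRIB1* did not pass (-0.17 ± 0.12, SE, edgeR adjusted p = 0.31). Without the CPT libraries its log2 fold change was -0.47 (edgeR adjusted p = 5.7e-10). *JMJD1C* (-0.15 ± 0.07, SE) and *CAMK2N2* (0.28 ± 0.16, SE) did not pass. Leaving out the 4 shallow clone 32 libraries and their WT partners kept 2 pairs, no inhibitor and CPT at 0 h, so that depth, TNFα and the share of CPT pairs change together, and only *IRS1* passed (-0.52, edgeR adjusted p = 0.0052). *MAML2* was then at 1.03 (edgeR adjusted p = 0.073) and *SOX4* at 0.27 (edgeR adjusted p = 0.28), and without the pair as a block *SOX4* was at 0.47 with an edgeR adjusted p of 0.086.

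**Figure D4:**
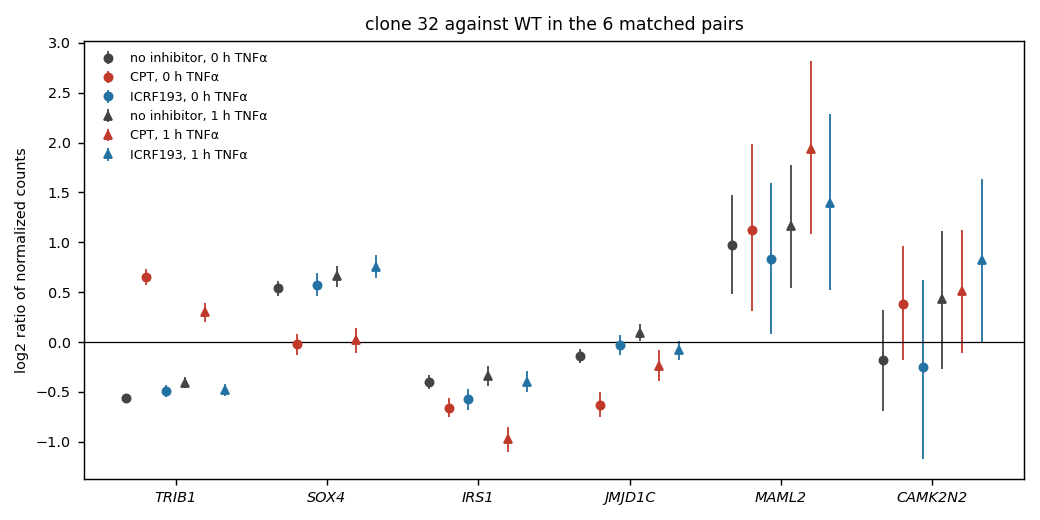
Log2 ratio of normalized counts in clone 32 to WT cells for each member in the 6 matched pairs, by inhibitor (color) and TNFα (circles 0 h, triangles 1 h). Bars are 95% intervals for counting error. *MAML2* lies above 0 and *IRS1* below 0 in all 6 pairs, and the CPT pairs of *TRIB1* and *SOX4* stand apart from their other pairs.

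TNFα for 1 h left the 6 members without a called change. In WT cells, the log2 fold changes lay between -0.08 (*SOX4*) and 0.04 (*TRIB1*) for the 4 well-expressed members, with standard errors of at most 0.05. *MAML2* was at -0.23 ± 0.23 (SE) and *CAMK2N2* at -0.15 ± 0.19 (SE). In clone 32, the values ranged from -0.05 ± 0.06 (SE) for *IRS1* to 0.14 ± 0.06 (SE) for *JMJD1C*, and were 0.26 ± 0.20 (SE) for *MAML2* and 0.39 ± 0.21 (SE) for *CAMK2N2*. None of the 6 passed with edgeR or DESeq2 in either line or in the difference between the lines. At an unadjusted p under 0.05, edgeR gave 0 members in WT cells and 1 (*JMJD1C*) both in clone 32 and in the difference. The same unadjusted threshold gave 595 of all 13707 genes in WT cells, 1683 of 12858 in clone 32 and 1432 of 14459 in the difference. At the adjusted threshold, 0.642% of all genes passed in WT cells, 0.498% in clone 32 and 0.228% in the difference. With 3 pairs per line, leaving out 1 pair could change this: *SOX4* passed in WT cells without the CPT pair (-0.15, edgeR adjusted p = 0.048) and *JMJD1C* in clone 32 without the ICRF193 pair (0.25, edgeR adjusted p = 0.0078). Over all genes, these fits called 372 in place of 88 and 581 in place of 64. In the clone 32 pairs left, without inhibitor and with CPT, depth and TNFα cannot be told apart.

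**Figure D5:**
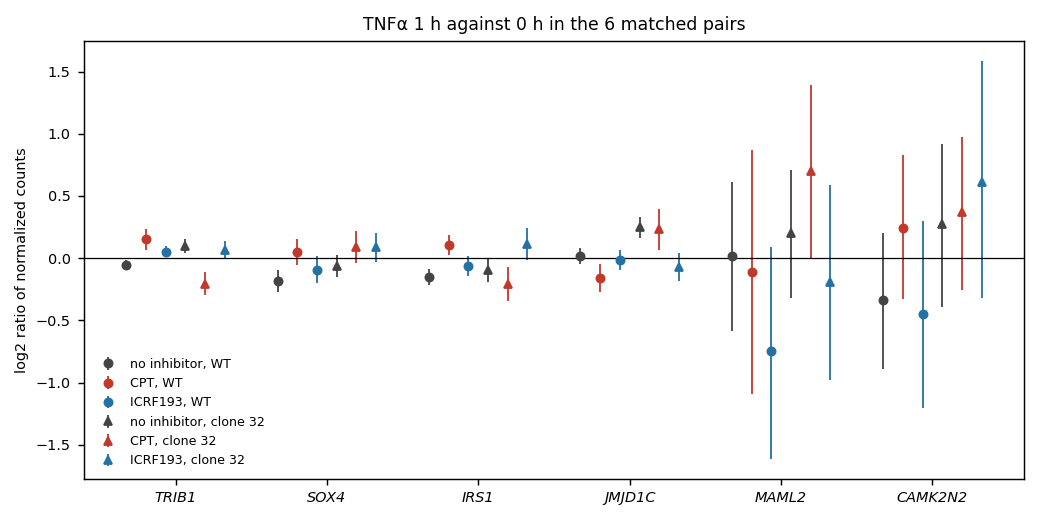
Log2 ratio of normalized counts at 1 h to 0 h TNFα for each member in 3 WT pairs (circles) and 3 clone 32 pairs (triangles), by inhibitor (color). Bars are 95% intervals for counting error. The 4 well-expressed members stay between -0.21 and 0.25, and *MAML2* and *CAMK2N2* have wide intervals.

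Relatives and pathway partners of the members were then examined in 6 lists, without the members. CPT lowered 41 and raised 19 of the 110 tested, beside 25.1% lower and 23.2% higher over all genes, and the counts below are to be read against these shares. Among Tribbles, COP1 and C/EBP genes, 5 of 9 fell and 1 rose (median log2 fold change -0.31), beside a median of 0.02 over all genes. The paralogs *TRIB3* (-1.02) and *TRIB2* (-0.45), both pseudokinases like TRIB1, fell with it, as did *CEBPG* (-0.46). Of the JmjC demethylases, 10 of 18 fell and 1 rose (median -0.35), led by the H3K27 demethylase *KDM6A* (-1.001), the H3K4 demethylase *KDM5B* (-0.95) and *KDM8* (-0.85). In insulin and IGF receptor signaling, 9 of 28 fell and 4 rose, with *PIK3R1*, the regulatory subunit of PI3 kinase, at -1.44 and the transcription factors *FOXO3* and *FOXO1* at -0.87 and -0.83. *PIK3R1* went from 278 to 601 normalized counts without inhibitor to 131 to 171 with CPT.

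The partners of *MAML2*, *SOX4* and *CAMK2N2* were mixed. In the Notch pathway, 13 of 33 fell and 9 rose with CPT (median -0.07). The receptor *NOTCH4* (1.83) and the ligand *DLL4* (1.44) rose, and *DTX3* had 0 reads in the 4 controls and 77 in the CPT libraries together. In the SOX family, *SOX13* (-0.72) fell, *SOX15* (0.84) rose and 4 of 6 did not pass. Of 16 genes for CaM kinases and calmodulin signaling, 3 rose and 3 fell. The kinase subunit *CAMK2B* (1.57) rose from at most 9.19 normalized counts, whereas the kinase *CAMKK1* (-0.87) and the calcineurin subunit *PPP3CC* (-0.26) fell. Of 6 topoisomerase genes, *TOP3A* (-0.48), *TOP3B* (-0.44) and *TOP2A* (-0.27) fell, and *TOP1* and *TOP2B* were among the 3 that did not pass. Of the genes for the drug targets TOP1 and TOP2, *TOP2A* was thus called lower and *TOP1* and *TOP2B* were not.

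The difference in the CPT response between the lines passed for 2 of 116 relatives as higher and 3 as lower, near the 2.39% and 2.38% over all genes. These were *CEBPD* (1.00) and *SPEN* (0.56), and *TRIB3* (-0.72), *PIK3R1* (-0.88) and *KDM4D* (-1.91). Between clone 32 and WT cells, 24 of 108 relatives were higher and 23 lower, beside 15.2% and 16.9% over all genes. *SOX9* (0.60) and *SOX13* (0.30) were higher in clone 32, *MAML3* (-0.57), a paralog of *MAML2*, was lower, and *NOTCH3* (0.71) was higher. With TNFα in WT cells, the H3K27 demethylase *KDM6B* (0.47, edgeR adjusted p = 0.014) alone of 108 relatives passed, beside 0.642% of all genes. With ICRF193, the contrast of the selection, 6 of 108 relatives were called lower and 0 higher in the fit, beside 1.58% and 0.587% of all genes, namely *CEBPD* (-0.40), *SOX9* (-0.29), *PPP3CA* (-0.27), *KDM6A* (-0.23), *JAG1* (-0.21) and *RPTOR* (-0.13). In the list of topoisomerases, which is not part of these 108 genes, *TOP2A* (0.18) was called higher.

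Across the 12 libraries, the members fell into different patterns. Pearson's r of log2 CPM was 0.91 between *TRIB1* and *JMJD1C* and 0.81 between *SOX4* and *MAML2*, and -0.35 to 0.45 between *CAMK2N2* and the other members. Out of 10229 genes ranked (mean count 100 or more), those most like *TRIB1* were *MYC* (r = 0.99), *SPATA2L* (0.99) and *ZNF473* (0.98). *MYC*, which codes for a growth-promoting transcription factor, ranged from 1740 to 14117 normalized counts. For *JMJD1C* they were *E2F3*, *SOCS6* and *REV1* (0.99 each), for *SOX4* *INADL* (0.97), *HARS2* and *CHDH* (0.95 each), and for *IRS1* *SMYD5*, *RPS19BP1* and *RNU6ATAC* (0.95 each). *MYO10*, *TES* and *TOX2* (0.95 each) were most like *MAML2*, and *NANOS1*, *ZNF32* and *SHISA8* (0.84 to 0.85) most like *CAMK2N2*. A high r does not mean a like range in normalized counts. *INADL* ranged from 1160 to 1370 and *HARS2* from 1224 to 1432.5, against 1127 to 2357 for *SOX4*. *MYO10* (2121 to 2960) and *TES* (3243 to 3887) also varied by a smaller factor than *MAML2* (14.6 to 81.6). CPM divides by total counts and not by size factors. All points share libraries and depth, the CPT libraries set much of the range of *TRIB1* and *JMJD1C*, and the values describe these 12 libraries.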

How the data were processed

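Total RNA of HCT116 cells was sequenced in 12 libraries (TruSeq stranded total RNA kit), 1 per condition. The deposited values are raw counts: the authors trimmed reads with Trimmomatic, mapped them to hg19 (STAR is listed in the submitters' processing notes) and counted reads on the exons of 26364 gene symbols with featureCounts 1.5.0, per the file headers without a strand option and without normalization. The methods give the libraries without inhibitor as either untreated or vehicle, without saying which.

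The members and gene lists were chosen with earlier results of these data known. Counts were tested with edgeR 4.0.16 in R 4.3.3 (TMM normalization, filterByExpr, quasi-likelihood test, Benjamini-Hochberg adjustment over all genes, adjusted p under 0.05). The block was the pair of libraries labelled alike except for the factor tested, which the design defines, since each condition has 1 library. TNFα pairs with an inhibitor may also differ in the time with the inhibitor. The pairs of a test are themselves different conditions. The p-values therefore set a change against its variation between such pairs, and do not measure agreement between replicates. A standard error was derived from the fold change and the test statistic. Each main fit was tested on simulated counts with known fold changes. These counts had the same dispersion setting for every gene and no differences between pairs, so that variation between conditions was not covered.

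Levels are counts over DESeq2 1.42.0 size factors, and TPM uses exonic lengths of the tables. Single pairs have exact Clopper-Pearson 95% intervals, which treat reads as independent molecules. Named genes were the 6 members; per list up to 3 called genes with the largest change with CPT and up to 2 in each other contrast; per member the 3 genes with the highest Pearson correlation (log2 of CPM + 0.5); the genes ranked around the weakest member; and *RELA*, *TOP1*, *TOP2A* and *TOP2B*. *MTG2* and *EXT1* are the genes at the threshold. Alternatives were other scalings, no filter, DESeq2, no block and fewer pairs. Tables were handled with pandas 2.3.3 and numpy 2.4.6 under Python 3.11.15, intervals came from scipy 1.17.1, and plots from matplotlib 3.10.9.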

Additional observations from a re-analysis of the deposited data

Results flagged for a closer look

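The effect of CPT differed between clone 32 and WT cells by a test of the difference itself for 4 members. The log2 difference, clone 32 minus WT, was 0.95 for *TRIB1*, which fell less in clone 32. It was -0.63 for *SOX4*, -0.46 for *IRS1* and -0.43 for *JMJD1C*, which fell more in clone 32. Depth moves with the cell line in the 1 h pairs, since both clone 32 libraries of that pair are shallow, and its part in these differences was not tested. At 0 h, where all 4 libraries hold at least 17115637 reads, the CPT log2 ratios in WT cells and clone 32 were -2.41 and -1.20 for *TRIB1*, -0.44 and -1.003 for *SOX4*, -0.53 and -0.79 for *IRS1*, and -1.33 and -1.82 for *JMJD1C*.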

How the results depend on the processing

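Of 396 values of single members over the alternatives, 379 kept their side of the threshold, 9 no longer passed and 8 newly passed. Of the values that had passed, 0 changed sign. Changes of sign in values that did not pass were not counted. An example is *TRIB1* in the CPT difference between 1 h and 0 h TNFα, at -0.07, and at 0.54 without the clone 32 pair at 0 h. The count of members called for the CPT difference between the lines (4) was 2 with DESeq2, and for clone 32 against WT cells (3) it was 5 without the low-count filter, where *TRIB1* (-0.18, edgeR adjusted p = 0.011) and *JMJD1C* (-0.16, edgeR adjusted p = 0.013) also passed, and 1 without the shallow libraries, an alternative chosen after seeing the data. The cause was not tested.

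Leaving out 1 pair at a time gave 5 to 5 members for CPT, 2 to 4 for the CPT difference between the lines, 0 to 1 for that between 1 h and 0 h TNFα, 3 to 4 for clone 32 against WT cells, 0 to 1 for TNFα in each line and 0 to 0 for its difference. For clone 32 against WT cells, *TRIB1* passed without the CPT pair at 0 h (-0.33, edgeR adjusted p = 0.0042) and *JMJD1C* without the pair given TNFα for 1 h and no inhibitor (-0.21, edgeR adjusted p = 0.050). In these fits a line left with 1 pair is assumed to vary like the other. The leave-out fits of the CPT and TNFα differences were added after seeing the data, as were a term for the cell line in the CPT difference between 1 h and 0 h (14 genes called in place of 1) and a term for TNFα in that between the lines (628 in place of 696), which left the calls of the members as they were.

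Without the pair as a block, 3 genes in place of 296 were called with ICRF193, 2043 in place of 4408 for clone 32, and 0 in place of 88 and 64 with TNFα in WT cells and clone 32, where edgeR gave 97 and 129 at an unadjusted p under 0.05. Among the members, the block changed the calls of *MAML2* with CPT (-0.98, edgeR adjusted p = 0.096 without it) and *SOX4* in clone 32 (0.47, edgeR adjusted p = 0.086 without it). DESeq2 called 84 genes with ICRF193, 146 in place of 696 for the CPT difference between the lines, 22 and 1 with TNFα in WT cells and clone 32 and 6 in place of 33 for its difference. Without a filter, 1096 genes were called for the CPT difference between the lines, 21 in place of 1 for that between 1 h and 0 h, 143 with TNFα in clone 32 (39 with total counts) and 132 for its difference. Without the shallow libraries 521 genes were called for clone 32. Leaving out 1 pair gave 148 to 322 genes with ICRF193, 277 to 1697 and 7 to 63 for the CPT differences, 60 to 372 and 14 to 581 with TNFα in WT cells and clone 32, and 5 to 99 for its difference.

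Each condition has 1 library, and *MAML2* and *CAMK2N2* had 17 to 101 reads per library. In the CPT fit their standard errors were 0.18 and 0.17, beside 0.16 for *TRIB1*, 0.11 for *SOX4*, 0.09 for *IRS1* and 0.08 for *JMJD1C*.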
